A study of Mus musculus with 4 samples.

Results

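The glutathione and NRF2 antioxidant genes were 35 named genes of glutathione synthesis and use, NRF2 targets and antioxidant enzymes. All 35 were measured, among 18193 genes on the arrays. Where a gene had several probe sets, the one brightest on average was used. The arrays came from melan-a cells, a line of immortal mouse melanocytes, with 1 Affymetrix array per condition. Before the experiment the cells had grown in DMEM with 10% serum, 200 nM of the phorbol ester TPA and 12 nM cholera toxin. They were then held for 14 days in DMEM with dialyzed serum, which the labels call starvation. The groups were Hmhi cells starved without EGF, Hmhi cells with 100 ng/ml EGF (epidermal growth factor), and both Hmhi-MYC-TA cells and Hmhi-Miz1 kd cells with the same dose of EGF. All 4 arrays are therefore of Hmhi cells. The labels spell out neither Hmhi nor MYC-TA, name the knockdown construct pS-Miz1, and do not say whether the lines were clones or pools.

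NRF2, the product of Nfe2l2, is a transcription factor that KEAP1 marks for destruction until electrophiles or oxidants modify KEAP1. It then pairs with small MAF proteins at antioxidant response elements and switches on enzymes that make glutathione, reduce thioredoxin, supply NADPH and detoxify quinones, epoxides and aldehydes. Glutathione is a tripeptide built from cysteine, and cystathionase, named in the series title, makes cysteine from cystathionine. In melanocytes the pathway matters because melanin synthesis yields quinones and hydrogen peroxide.

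Values are log2 signals, given in the order Hmhi starved, Hmhi EGF, the array labelled Miz1 kd and MYC-TA unless stated otherwise. With 1 array per condition nothing was tested, no p-value is given, and "higher" or "lower" compares 2 arrays. A culture with more cells expressing a gene cannot be told apart from one with more RNA per cell. The authors' values share a median of 6.66 per array, which serves as the level filter. A comparison of 2 arrays takes in the genes that reach this median in the array where they are brighter. The only error available was how far probe sets of 1 gene differed, as an SD. It was 0.32 for EGF against starved, 0.22 for the array labelled Miz1 kd against Hmhi EGF, 0.26 for MYC-TA against Hmhi EGF and 0.41 for MYC-TA against the array labelled Miz1 kd. This SD holds no spread between cultures.

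Zbtb17, the gene of Miz-1, read 8.73, 8.72, 9.08 and 8.71, so the array labelled Miz1 kd did not have less of it and is named by its label throughout. Myc read 10.64, 10.60, 10.79 and 9.78 on its 1 probe set, so MYC-TA had the lowest signal for it, 1.77-fold below Hmhi EGF. The labels do not say what a MYC-TA construct should do to this signal. Of 11 melanocyte markers, 8 or 9 reached the array median in each array. Sox10, Tyrp1, Mlana and Mitf were bright, while Tyr and Ednrb were below the median in all 4. Among 7 fibroblast markers, 2 or 3 reached it, and Col1a1, Lum and Dpt were below it in all 4. Dcn was bright, at 11.50, 10.35, 9.45 and 11.56. Pdgfra lay between 7.40 and 8.24, and Col3a1 read 9.69 in MYC-TA. The difference between 3′ and 5′ control sets lay between 0.66 and 0.87 for Actb and between -0.40 and -0.22 for Gapdh. Several markers and controls that differed between arrays are given with each comparison.

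**Figure D1:**
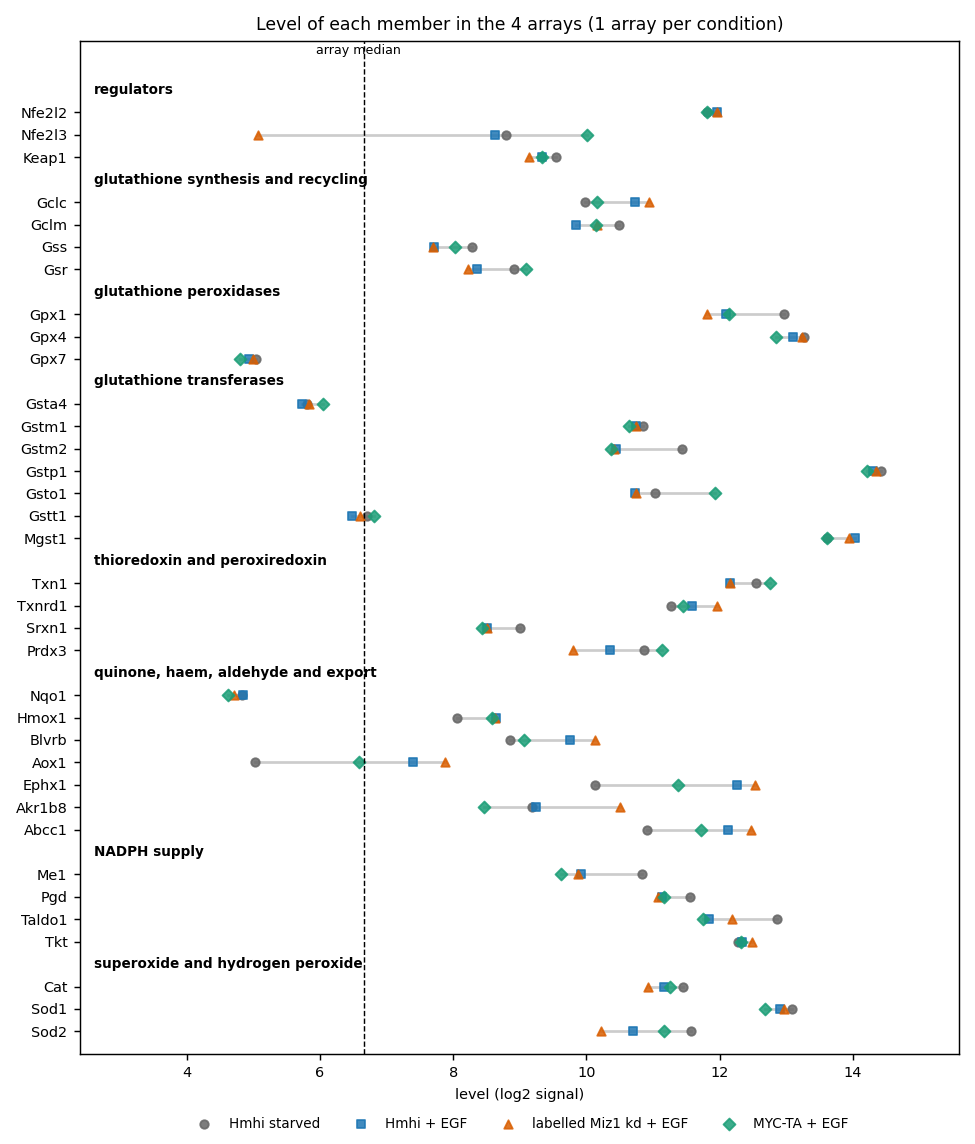
Level of each of the 35 members (log2 signal, x axis) in the 4 arrays, grouped by role, with 1 point per array, a grey bar over the range and a dashed line at the array median. Nfe2l3 has the widest range, 4.94, and Nfe2l2 the narrowest, 0.16, while Nqo1, Gpx7 and Gsta4 lie below the median in every array.

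Of the 35 members, 29 reached the array median in all 4 arrays and 3 in none. The 3 were Nqo1, the quinone reductase often used as a readout of NRF2, Gpx7, a peroxidase of the endoplasmic reticulum, and Gsta4, which conjugates the lipid aldehyde 4-hydroxynonenal. Nqo1 read 4.84, 4.85, 4.70 and 4.63. Gpx7 lay between 4.80 and 5.04 and Gsta4 between 5.73 and 6.05. These are bounds set by the probe sets' background, so no change of these genes can be read from them. Among the other 32, the median range over the 4 arrays was 0.66, beside 0.63 over all 11805 genes bright in at least 1 array. Hmhi starved was the highest array for 15 of the 32 (46.9%), beside 30.4% of all genes.

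Sequences around the letters of an antioxidant response element are shown because they are what NRF2 is known to bind. The RefSeq promoter table (GRCm38.p6) held windows from 250 bases before to 50 bases after the start for 30 of the 35 members. Hmox1, Gclc, Gsr, Gsta4 and Abcc1 had none there. The letters TGACNNNGC were searched on both strands and lay in a window of 8 of 30 members (26.7%), beside 14.0% of 27025 genes in the table. Other redox genes from a fixed list had a similar share, 17 of 77 (22.1%). Counted by window, it was 8 of 40 (20.0%), beside 12.4% of 32851. Each match below is printed 5′ to 3′ along its gene with the matched letters in capitals.
Nfe2l2, chr2:75704885-75704913, minus strand, match at -240: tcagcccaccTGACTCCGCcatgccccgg
Gclm, chr3:122245413-122245441, plus strand, match at -134: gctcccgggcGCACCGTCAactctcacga
Mgst1, chr6:138140461-138140489, plus strand, match at -56: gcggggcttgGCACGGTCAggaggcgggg
Srxn1, chr2:152105542-152105570, plus strand, match at 28: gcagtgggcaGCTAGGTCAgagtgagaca
Txnrd1, chr10:82859104-82859132, plus strand, match at -92: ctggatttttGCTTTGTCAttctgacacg
Me1, chr9:86695902-86695930, minus strand, match at -6: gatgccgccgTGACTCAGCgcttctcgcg
Pgd, chr4:149166061-149166089, minus strand, match at 3: atttcagagcTGACATTGCactgatcgga
Sod1, chr16:90220696-90220724, plus strand, match at -56: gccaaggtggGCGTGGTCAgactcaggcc
Positions count from the start that belongs to the matched window, with negative values before it, and give the first matched letter. Txnrd1, Mgst1, Me1 and Pgd had several windows for different starts, and the letters lay in a single window of each. For Pgd this was the window farther downstream, and the match lies after that start. The window at the upstream Pgd start held 0 matches. Of the 9 members at least 2-fold apart in any comparison, 8 had a window and 0 of these 8 held the letters. The Me1 match also holds the AP-1 letters TGACTCA. Those letters, searched on both strands, lay in 4 of the 30 members (13.3%), Me1, Srxn1, Gstp1 and Aox1, beside 5.95% of all genes. The MYC E-box CACGTG, which reads the same on both strands, was found in 0 of 30, beside 8.09% of all genes. A match describes letters in a short window and not a bound site, and a missing match says only that the letters are not in that window.

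EGF was compared with no EGF in Hmhi cells after 14 days, with 1 array each. Aox1, Ephx1, Blvrb and Hmox1, enzymes of aldehyde, epoxide and haem handling, and the conjugate exporter Abcc1 were at least 1.5-fold higher with EGF. Taldo1 and Me1 of NADPH supply, the peroxide and superoxide enzymes Gpx1 and Sod2, the transferase Gstm2 and the glutathione synthesis subunit Gclm were at least 1.5-fold lower. Of 32 members past the filter, 3 were at least 2-fold higher, beside 7.98% of 11461 genes, and 1 was at least 2-fold lower, beside 4.96%. At 1.5-fold the counts were 6 higher and 6 lower, beside 16.7% and 13.3%. The remaining higher gene at 1.5-fold was Gclc. The counts in both directions were thus near the background. The median of the members was -0.20 beside 0.006 over all genes, and 21 of 32 were lower by any amount, beside 49.4% of all genes. Other features also differed between these arrays. The 18S rRNA control sets were higher with EGF in 3 of 3, by a median of 0.83, and the poly-A spike sets lower in 22 of 24, by a median of -0.14. Hybridization spike sets were higher in 14 of 18, by a median of 0.10. Of 5 macrophage and leukocyte markers, Csf1r was lower by -2.66 and Cd68 higher by 1.52, while the leukocyte marker Ptprc lay below the array median in all 4 arrays. Of 4 fibroblast markers past the filter, 2 were higher, Pdgfra by 0.81 and Col3a1 by 0.62. The other 2 were lower, Dcn by -1.16 and Col1a2 by -0.55. Of 9 melanocyte markers past the filter, 3 were at least 2-fold higher and 1 was at least 2-fold lower. Slc45a2 was higher by 1.62, Pmel by 1.51 and Dct by 1.48, and Tyrp1 was lower by -1.02. Their part in the EGF differences was not tested.

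The comparison of the array labelled Miz1 kd with Hmhi EGF asked what the knockdown construct did under EGF. Nfe2l3, a relative of NRF2, was far lower in it and Akr1b8, an aldo-keto reductase, was higher. Of 31 members past the filter, 1 was thus at least 2-fold higher, beside 0.290% of 11394 genes, and 1 at least 2-fold lower, beside 2.50%. The same 2 genes were the only members at least 1.5-fold apart, beside 2.15% of all genes higher and 6.99% lower. The members had a median of 0.003, beside 0.018 over all genes. Their median size, regardless of sign, was 0.15, beside 0.20. In the array labelled Miz1 kd, 24 of 24 poly-A spike sets read lower, by a median of -0.23. Of 9 melanocyte markers past the filter, 4 were higher, with Tyrp1 at 0.73, and 5 lower, with Dct at -2.07. Of 3 fibroblast markers past it, Pdgfra differed by 0.03, Col3a1 by -0.95 and Dcn by -0.90. The 18S rRNA control sets were lower in 3 of 3, by a median of -0.31. Hybridization spike sets were higher in 14 of 18, by a median of 0.02. Their part in the result was not tested.

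MYC-TA was compared with Hmhi EGF, both with EGF and with 1 array each. Nfe2l3 and Gsto1, an omega-class glutathione transferase, were at least 2-fold higher, 2 of 32 members, beside 1.30% of 11534 genes. Not 1 member was at least 2-fold lower, beside 1.65%. At 1.5-fold, Prdx3, Gsr and Txn1 joined the higher genes and Ephx1, Aox1, Akr1b8 and Blvrb were lower, which gave 5 and 4, beside 7.30% and 7.03%. The median was -0.07 beside 0.05 over all genes. The poly-A spike sets were higher in MYC-TA in 22 of 24, by a median of 0.26. The 18S rRNA control sets were lower in 3 of 3, by a median of -0.21. Hybridization spike sets were lower in 17 of 18, by a median of -0.09. Of 3 fibroblast markers past the filter, Col3a1 was higher by 2.48 and Dcn by 1.22, while Pdgfra differed by -0.28. Of 9 melanocyte markers past it, 8 were lower, with Slc45a2 at -2.70. Their part in the result was not tested.

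Setting MYC-TA against the array labelled Miz1 kd gave the comparison without the Hmhi EGF array. MYC-TA had at least 2-fold more Nfe2l3, Prdx3 and Gsto1, 3 of 32 members, beside 6.72% of 11613 genes. Akr1b8, Aox1, Ephx1 and Blvrb were at least 2-fold lower, 4 of 32, beside 4.26%. At 1.5-fold there were 6 on each side, with Sod2, Gsr and Txn1 added to the higher and Gclc and Abcc1 to the lower genes, beside 17.0% and 12.4%. The median was -0.10 beside 0.04 over all genes. The poly-A spike sets were higher in MYC-TA in 24 of 24, by a median of 0.52. Hybridization spike sets were lower in 16 of 18, by a median of -0.12. Of 3 fibroblast markers past the filter, Col3a1 was higher by 3.43 and Dcn by 2.12, and Pdgfra differed by -0.31. Of 9 melanocyte markers, 3 were higher, with Dct at 1.88 and Kit at 1.15, and 6 lower, with Slc45a2 at -2.73. Their part in the result was not tested. The 3 comparisons among EGF arrays share arrays in pairs, so their values are not independent of each other. The Hmhi EGF array is also the first array in the comparison with Hmhi starved. An error in this array would thus give opposite signs there and in the comparisons of the other EGF arrays with it.

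**Figure D2:**
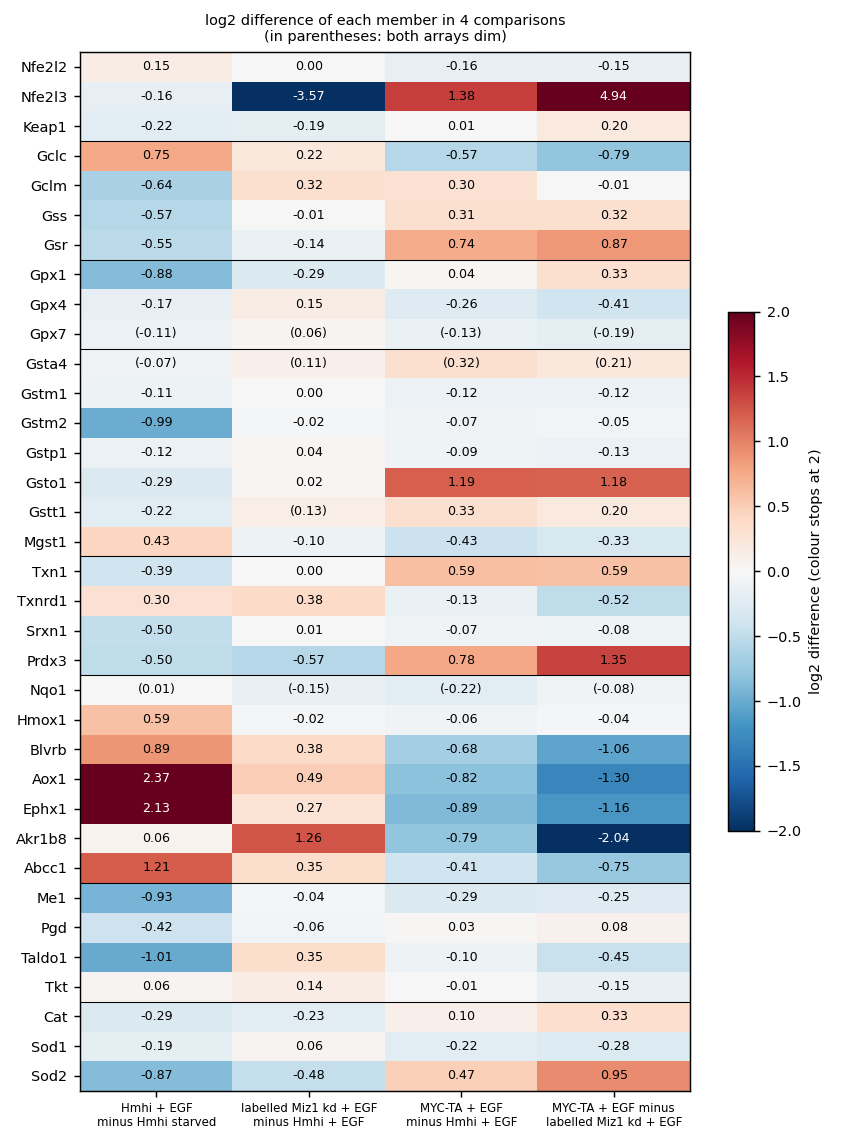
Differences of the 35 members (rows, grouped by role) in the 4 comparisons (columns), on the log2 scale, with red for higher and blue for lower in the first-named array and parentheses where both arrays were below the median. Aox1, Ephx1 and Abcc1 stand out in the first column at 2.37, 2.13 and 1.21, and Nfe2l3 in the second at -3.57.

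**Figure D3:**
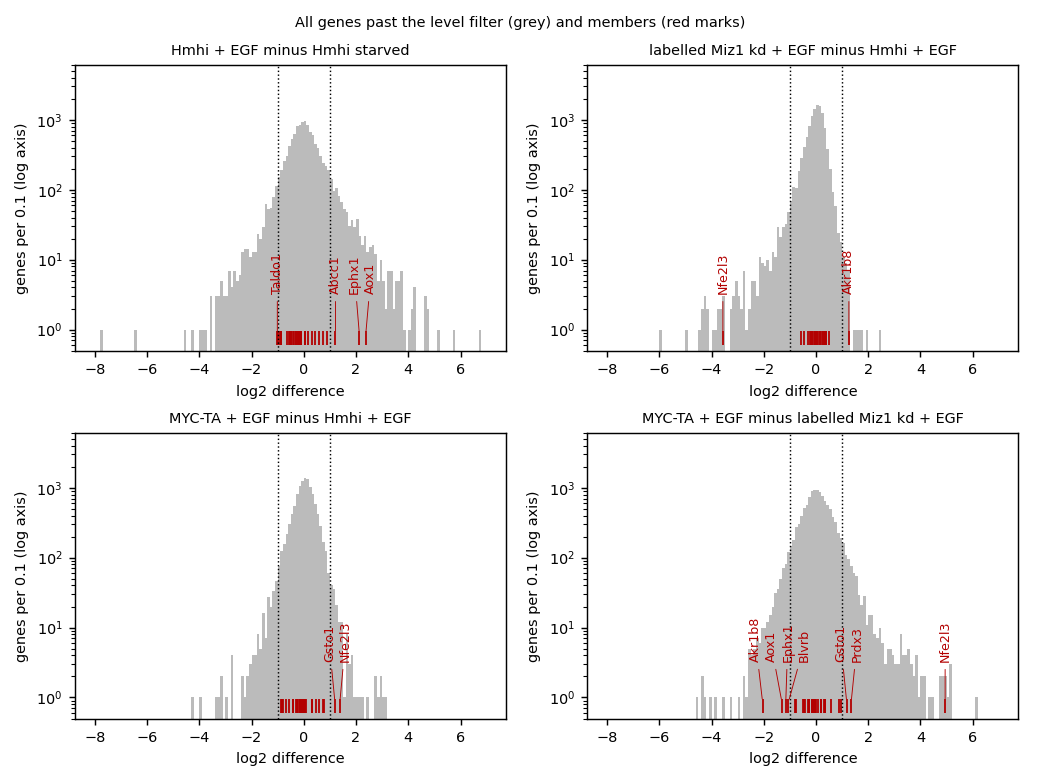
Number of genes past the level filter by log2 difference (grey, log axis) in each comparison, with the members as red marks, names for those at least 2-fold apart and dotted lines at 2-fold. Most members lie in the middle of the distribution, with Nfe2l3 at -3.57 and 4.94 in the panels on the right.

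Among the regulators, Nfe2l2 read 11.82, 11.96, 11.96 and 11.81, the narrowest range of all members. Its dimmer second probe set went from 8.25 in Hmhi starved to 7.39, 7.23 and 6.77 in the EGF arrays, so the probe sets disagree on EGF. Keap1, the adaptor that hands NRF2 to a ubiquitin ligase, read 9.55, 9.33, 9.14 and 9.34. Its second set also read highest in Hmhi starved, at 7.31, and lowest in the array labelled Miz1 kd, at 6.54. Neither gene was 1.5-fold apart in any comparison on the probe set used.

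Nfe2l3 encodes NRF3, which shares the DNA-binding and partner-binding design of NRF2 but is tethered to the endoplasmic reticulum. It read 8.79, 8.63, 5.07 and 10.01. The Hmhi arrays were alike, the array labelled Miz1 kd was low and MYC-TA was high. The log2 difference from Hmhi EGF was -3.57 in the array labelled Miz1 kd. In MYC-TA it was 1.38, rank 43 from the highest of 11534. For MYC-TA against the array labelled Miz1 kd it was 4.94. The second set read 7.31, 7.51, 6.16 and 8.52, which is the same order of the EGF arrays with smaller steps of -1.35 and 1.01. Its remaining set was below the median in all 4 arrays, between 5.35 and 5.62. With the mean of the 3 sets the differences from Hmhi EGF were -1.66 and 0.86, and that for MYC-TA against the array labelled Miz1 kd was 2.53. Nfe2l3 lay under the median of the array labelled Miz1 kd. Background thus limits the size of the differences that use that array.

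Glutathione is made in a pair of steps. The rate-limiting enzyme joins glutamate and cysteine and consists of a catalytic subunit, Gclc, and a modifier, Gclm. Gclc read 9.98, 10.73, 10.95 and 10.16, higher with EGF by 0.75 and lower in MYC-TA than in Hmhi EGF by 0.57. Its second set gave 0.71 and -0.65 for the same differences. Gclm went the other way, at 10.49, 9.84, 10.16 and 10.15, with a difference of -0.64 for EGF against starved and -0.97 in its second set. The subunits of this enzyme thus differed in opposite directions with EGF, in both probe sets of each.

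Gss, glutathione synthetase, adds the last residue and read 8.28, 7.71, 7.70 and 8.02. Gsr reduces oxidized glutathione with NADPH and read 8.91, 8.36, 8.23 and 9.10. Both were lower with EGF, by log2 values of -0.57 and -0.55, and MYC-TA had more of both than Hmhi EGF had, by 0.31 and 0.74. In their second sets these MYC-TA differences were 0.50 for each.

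Cysteine supply was read beside them. Slc7a11, the cystine transporter subunit and an NRF2 target, read 5.21, 7.37, 7.90 and 7.22, with a second set at 5.25, 6.84, 7.49 and 6.92. It was lower in Hmhi starved than in any EGF array, and below the array median there. Cth, which encodes cystathionase, read 4.34, 5.18, 6.20 and 8.31, and only MYC-TA was above the median.

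Of the glutathione peroxidases, Gpx1 acts on hydrogen peroxide in the cytosol and mitochondria, and Gpx4 on lipid peroxides. Gpx1 read 12.97, 12.10, 11.81 and 12.13 on 1 probe set. It was highest in Hmhi starved, with a difference of -0.88 for EGF against starved. Gpx4 read 13.26, 13.10, 13.24 and 12.84, with no difference over 0.41 in size in the 4 comparisons. Its second set gave -0.21, 0.19, -0.19 and -0.37 for them.

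Glutathione transferases couple glutathione to electrophiles. Gsto1 read 11.02, 10.73, 10.75 and 11.93, with MYC-TA above the other 3 arrays and those within 0.29 of each other. MYC-TA had 2.29-fold more of it than Hmhi EGF and 2.26-fold more than the array labelled Miz1 kd. The second set read 10.81, 10.60, 10.67 and 11.74 and gave log2 differences of 1.14 and 1.08.

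Gstm2, a mu-class transferase, read 11.43, 10.44, 10.42 and 10.37, which places Hmhi starved above the EGF arrays. Its difference of -0.99 for EGF against starved fell just short of 2-fold. Gstm1, of the same class, read 10.85, 10.75, 10.75 and 10.63, and its 4 sets differed by at most 0.25 in that comparison. Mu-class genes are similar in sequence, so a probe set of one may also read another. Gstp1, the pi-class enzyme, was bright and flat at 14.43, 14.30, 14.34 and 14.22. Mgst1, the microsomal transferase, read 13.61, 14.04, 13.94 and 13.61, with Hmhi EGF 0.43 above both Hmhi starved and MYC-TA. Gstt1, of the theta class, stayed near the array median, between 6.48 and 6.80.

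The thioredoxin system reduces disulfides and peroxiredoxins. Prdx3, the mitochondrial peroxiredoxin, read 10.86, 10.36, 9.80 and 11.14 on 1 probe set. Among the EGF arrays, the array labelled Miz1 kd was lowest and MYC-TA highest, 2.54-fold apart. Against Hmhi EGF the differences were -0.57 and 0.78. Txn1, thioredoxin, read 12.55, 12.16, 12.16 and 12.75, with MYC-TA above Hmhi EGF by 0.59. Its dim second set, at 7.10 to 7.38, gave -0.07 for that difference, so the sets disagree.

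Txnrd1, the selenium-containing reductase of thioredoxin, read 11.28, 11.58, 11.96 and 11.45, highest in the array labelled Miz1 kd. Its other 2 sets were below the median in all arrays. Srxn1, sulfiredoxin, repairs overoxidized peroxiredoxins and read 9.00, 8.50, 8.51 and 8.43. All 4 of its sets were lower with EGF than in Hmhi starved, by between 0.15 and 0.50 in size.

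The enzymes of quinone, haem and aldehyde handling, with the exporter Abcc1, had a median range over the arrays of 1.80, the widest of any role. Of its 7 members, 6 passed the filter. Their median with EGF was 1.05, and 6 of 6 were higher than in Hmhi starved, beside 50.5% of all genes, though Akr1b8 only by 0.06. The group's median was 0.37 in the array labelled Miz1 kd against Hmhi EGF, with 5 of 6 higher, beside 52.3%. In MYC-TA against Hmhi EGF it was -0.73, with 6 of 6 lower, beside 44.7%. In MYC-TA against the array labelled Miz1 kd it was -1.11, with 6 of 6 lower, beside 46.8%. The smallest of these differences, -0.06 and -0.04 for Hmox1, lie inside the SD between probe sets. The array labelled Miz1 kd was the highest of the 4 for 5 of the 6 genes, beside 28.6% of all genes, and Hmhi starved the lowest for 5, beside 34.9%. The group was drawn up with earlier results of these data known, and the comparisons share arrays, so these counts are description only.

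Aox1, aldehyde oxidase, read 5.03, 7.40, 7.88 and 6.58. It was 5.17-fold higher with EGF, a fold that background limits because Hmhi starved lay below the array median. MYC-TA was also just below it. Ephx1, the microsomal epoxide hydrolase, read 10.13, 12.26, 12.53 and 11.38, and was bright in all arrays. It was 4.37-fold higher with EGF, and MYC-TA lay between the starved array and the other EGF arrays. Against the array labelled Miz1 kd, MYC-TA was lower by log2 values of -1.30 for Aox1 and -1.16 for Ephx1. Each has 1 probe set.

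Abcc1, the transporter that exports glutathione conjugates, read 10.91, 12.13, 12.48 and 11.72, with the same order of arrays as Ephx1. Its 2.32-fold difference with EGF was 0.97 on the log2 scale in the second set, against 1.21 in the first. Blvrb, which reduces biliverdin and flavins, read 8.86, 9.75, 10.13 and 9.07. It was higher with EGF by 0.89 and 2.08-fold lower in MYC-TA than in the array labelled Miz1 kd. Hmox1, which opens the haem ring to give biliverdin, read 8.06, 8.65, 8.63 and 8.59. The starved array was lowest, by at least 0.53, and the EGF arrays lay within 0.06 of each other.

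Akr1b8, a reductase of aldehydes, had another order, at 9.18, 9.24, 10.50 and 8.46. The Hmhi arrays were alike, the array labelled Miz1 kd was high and MYC-TA was low. Against Hmhi EGF it was 2.39-fold higher in the array labelled Miz1 kd, rank 8 from the highest of 11394 genes, and differed by -0.79 in MYC-TA. For MYC-TA against the array labelled Miz1 kd the difference was -2.04. Akr1b8 has close relatives in the mouse genome and only 1 probe set here, so signal from a relative cannot be told apart.

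**Figure D4:**
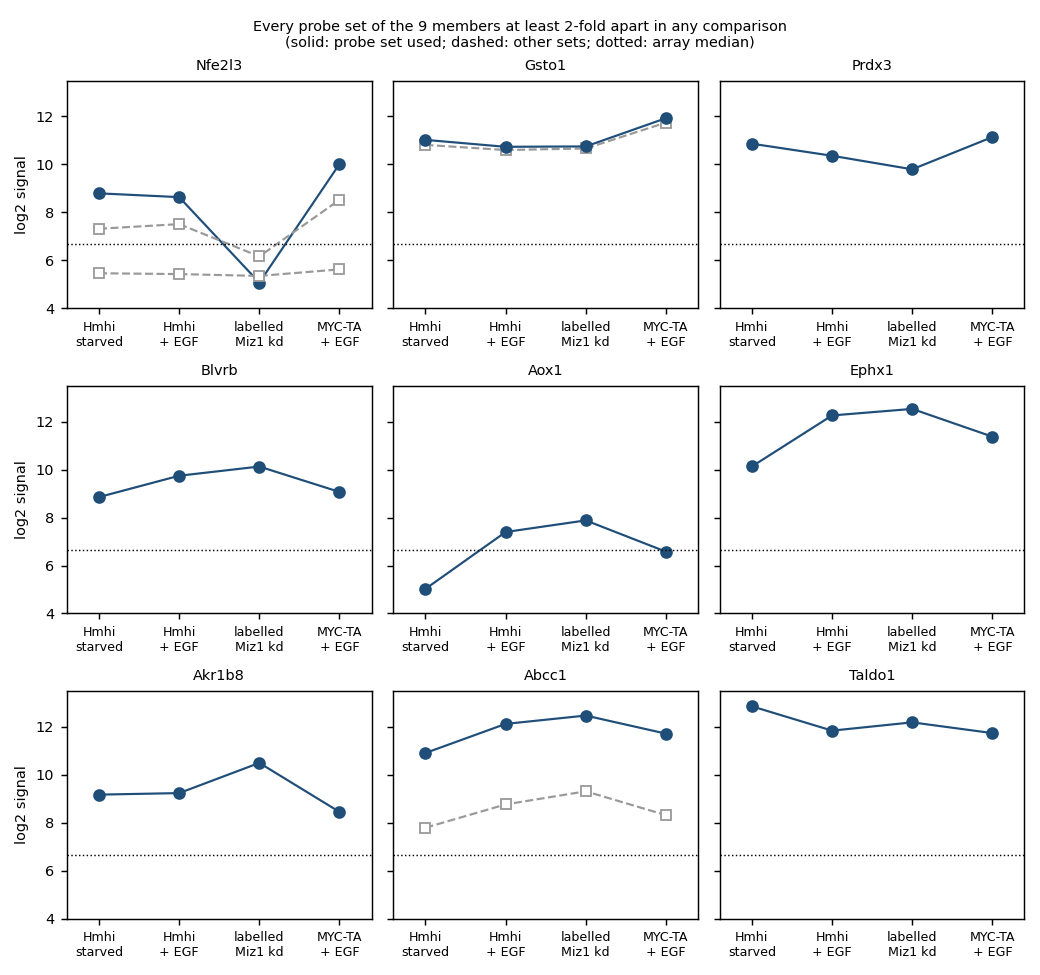
Levels (log2 signal, y axis) of every probe set of the 9 members at least 2-fold apart in any comparison, in the 4 arrays (x axis), with the set used as a solid line, other sets dashed and the array median dotted. The dimmest set of Nfe2l3 stays between 5.35 and 5.62, while the second sets of Gsto1 and Abcc1 run in parallel with the first.

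NADPH, which Gsr and Txnrd1 consume, comes from the pentose phosphate pathway and malic enzyme. Taldo1, transaldolase of the non-oxidative branch, read 12.86, 11.85, 12.19 and 11.74. Hmhi starved was above all EGF arrays, and the difference of -1.01 with EGF was -0.98 after a loess correction, which no longer reached 2-fold. Me1, the cytosolic malic enzyme, read 10.84, 9.92, 9.88 and 9.62, with a second set at 9.73, 8.91, 8.89 and 8.69. Both sets put Hmhi starved highest and MYC-TA lowest, and the difference with EGF was -0.93.

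Pgd, the second dehydrogenase of the oxidative branch, read 11.55, 11.13, 11.08 and 11.16. Its 4 probe sets gave -0.35 to -0.42 for EGF against starved. Tkt, transketolase, read 12.28, 12.34, 12.48 and 12.33, and its 3 sets disagreed in sign with EGF, at 0.06, 0.23 and -0.52. So Me1 and Taldo1 were at least 1.5-fold lower with EGF, while Pgd and Tkt were not.

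Of the enzymes that remove superoxide and hydrogen peroxide, Sod2 is mitochondrial, Sod1 mainly cytosolic and Cat peroxisomal. Sod2 read 11.57, 10.70, 10.22 and 11.17, lowest in the array labelled Miz1 kd. It differed by -0.87 with EGF and by 0.95 for MYC-TA against the array labelled Miz1 kd. All 4 of its sets had the same sign in both comparisons, with 0.41 to 1.36 in the second. The 3 EGF arrays stood in the same order for Prdx3.

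Cat read 11.45, 11.16, 10.93 and 11.26, and its second set also put the array labelled Miz1 kd lowest. Sod1 read 13.09, 12.90, 12.96 and 12.68. A dimmer Sod1 set gave -0.90 for MYC-TA against Hmhi EGF and another gave 0.07, where the brightest gave -0.22. Its sets thus disagree on size and sign.

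For comparison, 79 of 90 other redox genes on a fixed list were measured, and 67 of them passed the filter with EGF. Of the 67, 3 were at least 2-fold higher with EGF, beside 7.98% of all genes. These were the transferases Mgst2 at 2.90 and Gsta2 at 1.45 and the peroxiredoxin Prdx4 at 1.01. The lower ones were 5 in number, beside 4.96%. They included Aldh1a1, a retinal dehydrogenase, at -3.17, Gpx2 at -1.96, Ugdh at -1.16 and Fech, which makes haem, at -1.12. Against Hmhi EGF, 2 of 66 were at least 2-fold lower in the array labelled Miz1 kd, beside 2.50% of all genes. These were Aldh1a1 at -3.17 and Mgst3 at -1.04, and 0 were higher, beside 0.290%. In MYC-TA, 0 of 67 were higher, beside 1.30% of all genes, and 2 lower, beside 1.65%. The lower genes were Aldh1a1 at -1.40 and Akr1c13 at -1.06.

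For MYC-TA against the array labelled Miz1 kd, at least 2-fold differences put 5 of the 67 other redox genes above and 1 below. The shares over all genes were 6.72% above and 4.26% below. The higher ones included Aldh1a1 at 1.77, Mgst3 at 1.26, Gsto2 at 1.08 and the mitochondrial NADPH enzyme Nnt at 1.07, and the lower one was Akr1c13 at -1.49. Another aldo-keto reductase on the list, Akr1a1, differed by -0.15. The median of these 67 genes was 0.26 in this comparison, where that of the 32 members past the filter was -0.10. Without the filter the medians were 0.14 over 79 genes and -0.08 over 35 members. With EGF the median of the 67 was -0.13, beside -0.20 for the 32 members. Hmhi starved was the highest array for 30 of the 67 (44.8%), close to the share among the members.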

How the data were processed

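Total RNA of 4 cultures was measured on Affymetrix arrays from 100 ng of RNA each, per the labels' protocols. The deposited values run from 2.94 to 15.12 and were read as log2 signals; the log base, summarization and normalization are not given in the sources used here. Sorted columns differed by at most 0.004, so a shift common to all genes cannot be seen. The values are neither centred per gene nor ratios, and each difference is the first array named minus the second.

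Platform annotation of 2016 named 1 gene for 34945 of 45101 probe sets, several for 932 and none for 9160; 64 were controls. RefSeq identifiers matched 34741 sets and changed 0 symbols. All 35 members are named. Of the other redox genes, up to 4 per direction and comparison at least 2-fold apart are named. Members and lists were chosen with earlier results of these data known. The alternatives changed the scaling, the filter and the choice of probe sets. Only the 2-fold call was tested on simulated data, with changes larger than 2-fold in bright genes. That test says nothing about dim genes or differences near 2-fold. The small number of arrays limits precision. Python 3.11.15, pandas 2.3.3, numpy 2.4.6, statsmodels 0.14.6 and matplotlib 3.10.9 were used.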

Additional observations from a re-analysis of the deposited data

How the results depend on the processing

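No paired analysis was possible because there was 1 array per condition, and no array could be left out. Scaling alternatives were a common median, quantile normalization and loess with span 0.4. The sorted columns already differed by at most 0.004. The common median and quantile normalization could therefore change almost nothing and are no check of the results. The level filter was left out or raised to the 75th percentile, and genes were also read by the mean of their probe sets or by plain _at sets alone. Of the 8 counts and medians over members, 6 stayed within 1.5 times or within the SD between probe sets under all 7. The exceptions were counts at least 2-fold apart. That for the array labelled Miz1 kd against Hmhi EGF went from 2 to 1 with the 75th percentile filter, which drops Nfe2l3. That for MYC-TA against Hmhi EGF went from 2 to 1 with the mean of all probe sets, where Nfe2l3 read 0.86. No member at least 2-fold apart changed sign. Levels below the array median limit the size of differences of Aox1 and Nfe2l3.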
